A study of Mus musculus with 31 samples.

Results

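The strains compared were 9 BxD/TyJ recombinant inbred mouse strains with the highest and 9 with the lowest liver mRNA for the cytochromes P450 Cyp4a10 and Cyp4a14, of 31 strains with 1 array each. Strains 23, 28, 40 and 42 were left out by the rule, and the other 27 were ranked by a Cyp4a score, the mean of the log2 ratios of the Cyp4a10 and the Cyp4a14 probe. Both sets were therefore chosen by these 2 probes, which took no part in any test below. The 9 strains between the sets are called the middle strains. The labels name no treatment. Each array held whole liver RNA of 1 strain, pooled from 3 mice and labelled with one dye, against a reference in the other dye. The labels give all animals as male and 8 weeks old, and the reference as a pool of 9 C57BL/6J mice. BxD strains descend from C57BL/6J and DBA/2J, so the reference is 1 parent strain, and it is the only C57BL/6J RNA on the arrays. No dyes were swapped. A value is read here as the log2 of strain over reference, which is likely from the dyes but not stated in the sources used here. A pool has no spread between animals, so every SD and p-value measures the spread between the arrays of different strains. With 1 pool and 1 array per strain, differences of strain, pool and array cannot be told apart in it.

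CYP4A enzymes hydroxylate fatty acids at the end of the chain, the first step of a route that turns them into dicarboxylic acids for oxidation in peroxisomes. In mouse liver, Cyp4a10 and Cyp4a14 are among the best known targets of the nuclear receptor PPAR-alpha, which binds fatty acids and induces peroxisomal and mitochondrial oxidation, the carnitine shuttle and ketone body synthesis during fasting. Both genes are therefore often read as markers of PPAR-alpha activity, although other regulators also act on them.

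Cyp4a10 lay between 0.72 and 1.84 in the high Cyp4a strains, with a median of 1.49 and a mean of 1.41 ± 0.33 (SD, n = 9), and between -1.69 and 0.02 in the low Cyp4a strains, with a median of -0.98 and a mean of -0.97 ± 0.51 (SD, n = 9). Cyp4a14 lay between 0.32 and 2.62 in the high set, with a mean of 1.34 ± 0.71 (SD, n = 9), and between -2.08 and -0.11 in the low set, with a mean of -0.76 ± 0.69 (SD, n = 9). These values chose the sets and are a description. By score, the high set ran through strains 39, 20, 15, 33, 22, 38, 5, 27 and 11, from 2.06 to 0.94. The low set ran from strain 19 at -0.30 through strains 21, 12, 13, 14, 31, 16 and 18 to strain 32 at -1.55. The edges were close, since strain 36 just outside the high set scored 0.83 and strain 6 just outside the low set scored -0.28. The 2 genes differed most in strain 36, with Cyp4a10 at 1.79 and Cyp4a14 at -0.13. In strain 31, Cyp4a10 was at -1.69 and Cyp4a14 at -0.13. Over the 27 strains the 2 probes correlated at r = 0.763, a description over arrays that share 1 reference.

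**Figure D1:**
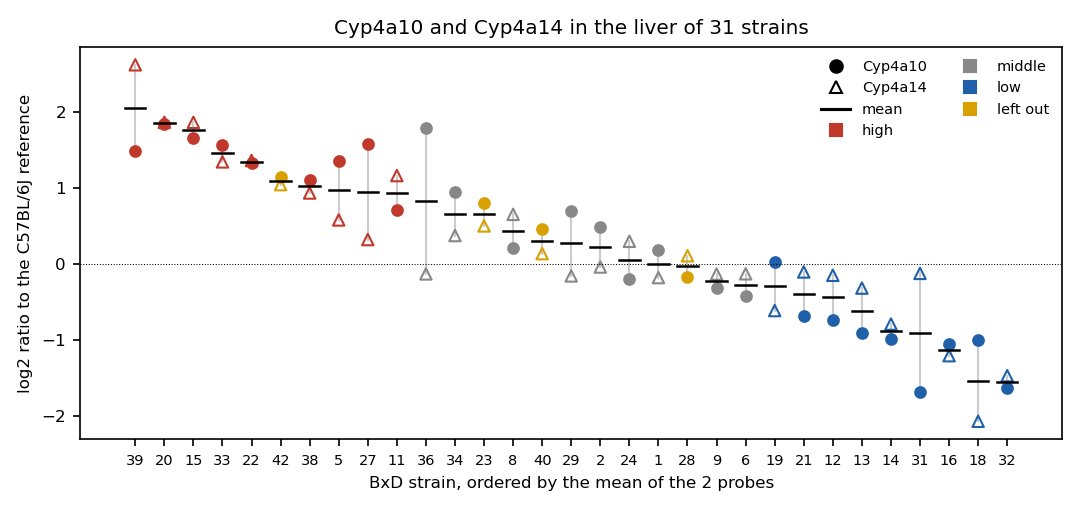
Log2 ratio to the C57BL/6J reference (y axis) of Cyp4a10 (filled circles) and Cyp4a14 (open triangles) in each of 31 BxD strains (x axis), ordered by their mean (black bars). Red strains form the high set, from 2.06 down to 0.94, and blue strains the low set, from -0.30 down to -1.55; grey strains are the middle ones, and the 4 yellow strains were left out by the rule.

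The arrays of the sets also differed as a whole. The first principal component of the other 21763 probes over the 18 arrays, which held 23.5% of their variance, lay between -3.97 and 39.7 in the high strains and between -22.0 and -7.73 in the low strains, without overlap (exact permutation p = 4.11e-05, two-sided, the smallest this design can give; adjusted p = 0.000123 over 3 array measures). Probes at every 8th place of the array's numbering read lower than the rest on all 18 arrays. The difference of medians was -0.644 ± 0.0749 in the high and -0.719 ± 0.0301 in the low strains (SD, n = 9 each; exact permutation p = 0.0148, adjusted p = 0.0222). The median correlation of an array with the other arrays was 0.736 ± 0.0661 in the high and 0.776 ± 0.0112 in the low strains (SD, n = 9 each; exact permutation p = 0.0564). Strain 38, of the high set, stood apart with 0.584. The part of these array differences in the gene results was not tested, and with the first component as a covariate limma called 0 probes higher and 2 lower, with 947 higher and 1017 lower at an unadjusted p under 0.05. Those 2 probes have no gene listed.

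**Figure D2:**
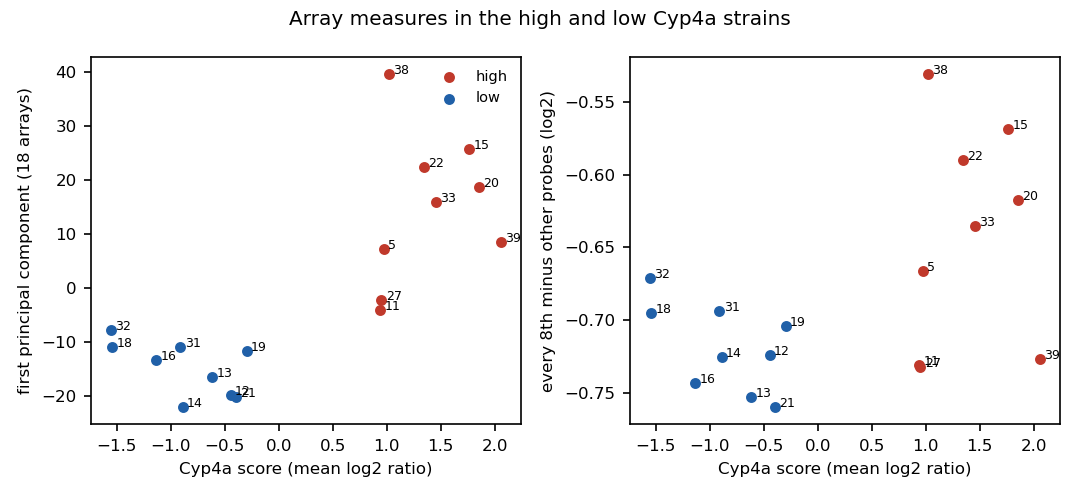
First principal component of 18 arrays (left, y axis) and the median of every 8th probe minus that of the other probes in log2 units (right, y axis), each against the Cyp4a score (x axis); points are arrays, numbered by strain, red for the high and blue for the low set. On the left the sets lie apart, with the low strains at -7.73 or below and strain 38 highest at 39.7; on the right they overlap.

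Of 21763 probes tested with limma, 1004 were higher in the high Cyp4a strains, 4.61% of all, and 783 were lower, 3.6% of all, at an adjusted p under 0.05. The median size of these differences was 0.37 on the log2 scale. The difference reached 1 in 33 of the higher probes and -1 in 28 of the lower ones. In 107 probes, 0.492% of all, the values of the 2 sets did not overlap, with 74 of them higher and 33 lower in the high strains. An unadjusted p under 0.05 was found for 5678 probes, 26.1% of all, both directions together. Most genes named below were read by 1 probe. Over 902 genes with exactly 2 probes, the differences of the 2 probes correlated at r = 0.020. Of the 2532 every 8th probes tested, 8.06% were called higher and 2.49% lower, against 4.16% and 3.74% of the other probes. Genes named below without that mark but read by every 8th probes include Arg1, Cyp2a12, Ndufa5, Ndufa8, Socs2, Ghr, Rcan2, Zc3h11a, Pxdn, Cyp4b1 and Rxra. The same holds for 1 probe each of Hba-x and Rif1. Without strain 38 the fit called 833 probes higher and 579 lower. Leaving out strain 21 gave 668 and 462, and the lower count also fell by more than 1.5 times without strain 15, to 475, or strain 14, to 491.

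Of the other measured members of the Cyp4 family, none of 8 probes of 7 genes passed the test with limma. An unadjusted p under 0.05 was found for 3 of the 8 probes, and for 26.1% of all probes. Their median difference, high minus low, was 0.002 against -0.004 over all probes. Cyp4a12a, the male-specific CYP4A gene of mouse liver and the closest measured neighbour of the Cyp4a pair in the gene order, lay between -2.36 and 0.46 in the high strains, with a median of -0.53. In the low strains it lay between -0.34 and 1.30, with a median of 0.12. The difference of -0.77 ± 0.29 (SE) had an adjusted p of 0.10, and the probe is an every 8th one. Cyp4f13, of a subfamily that acts on leukotrienes and other lipids, differed by 0.38 ± 0.13 (SE, adjusted p = 0.068).

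Among 33 probes of 24 nuclear receptor and coactivator genes, 1 passed the test, in the higher direction. That is 3.03% higher against 4.61% of all probes and 0% lower against 3.6%, so neither share was above that of all probes. The called gene was Nr1h3, the oxysterol receptor LXR-alpha, with 0.09 ± 0.32 in the high and -0.41 ± 0.30 in the low strains (SD, n = 9 each; difference 0.50 ± 0.13 SE, adjusted p = 0.028). Its sets overlapped, and the adjusted p was 0.056 without strain 21. Ppara, which encodes PPAR-alpha itself, lay between -0.10 and 0.75 in the high strains, with a median of 0.27, and between -0.44 and 0.66 in the low strains, with a median of -0.04. The difference of 0.35 ± 0.14 (SE) did not pass (adjusted p = 0.10). Its 95% interval was 0.07 to 0.63. Ncoa1, a coactivator, came nearest to the threshold after Nr1h3 (0.25 ± 0.08 SE, adjusted p = 0.052). Rxra, whose product pairs with PPAR-alpha on DNA, differed by -0.25 ± 0.11 (SE, adjusted p = 0.15).

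Targets of PPAR-alpha were mixed in direction. Of 78 probes of 77 genes measured from a list of 93, 6 were higher and 5 lower, which is 7.69% and 6.41% against 4.61% and 3.6% over all probes. Their median difference was 0.05, and 20 were higher and 9 lower at an unadjusted p under 0.05. Such a p was found for 26.1% of all probes, both directions together. The fatty acid oxidation enzyme Acadm, the medium-chain acyl-CoA dehydrogenase, lay between 0.51 and 1.08 in the high strains, with a median of 0.83, and between -0.04 and 0.47 in the low strains, with a median of 0.05. The sets did not overlap, and Acadm was 1.57-fold higher in the high strains (log2 difference 0.65 ± 0.09 SE, adjusted p = 0.00036). Its mean in the middle strains, 0.36, fell between the sets.

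Apoa5, a secreted regulator of triglyceride clearance, lay between 0.67 and 1.83 in the high and between -0.05 and 1.04 in the low strains, a difference of 0.77 ± 0.17 (SE, adjusted p = 0.012). The peroxisomal enzymes Decr2, which reduces intermediates of unsaturated fatty acids, and Crat, which transfers acyl groups to carnitine, were higher by 0.46 ± 0.10 and 0.35 ± 0.07 (SE, adjusted p = 0.0085 for both). Etfb, part of the flavoprotein that takes electrons from acyl-CoA dehydrogenases, was higher by 0.45 ± 0.11 (SE, adjusted p = 0.020). Vnn1, a pantetheinase, was higher by 0.37 ± 0.09 (SE, adjusted p = 0.020). These 6 are all the higher members.

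Txnip, an inhibitor of thioredoxin that also restrains glucose uptake, lay between -1.06 and 0.21 in the high strains, with a median of -0.02, and between 0.25 and 0.85 in the low strains, with a median of 0.48. Its sets did not overlap (difference -0.62 ± 0.14 SE, adjusted p = 0.010). The other 4 lower members act in fatty acid handling. They were the short-chain dehydrogenase Acads (-0.44 ± 0.13 SE, adjusted p = 0.037), the peroxisomal transporter Abcd3 (-0.43 ± 0.10 SE, adjusted p = 0.015), the droplet protein Plin5 (-0.33 ± 0.08 SE, adjusted p = 0.016) and the peroxisomal multifunctional enzyme Hsd17b4 (-0.25 ± 0.07 SE, adjusted p = 0.041). Acads and Hsd17b4 lost their calls with single strains left out, up to an adjusted p of 0.062 without strain 12 and 0.074 without strain 15. The count of lower members was 3 when any 1 of strains 12, 13, 14, 15, 16, 21 or 33 was left out. Well-known targets that did not pass included Ehhadh, of peroxisomal oxidation (0.02, 95% interval -0.15 to 0.19), Cpt1a, the entry step of the carnitine shuttle (-0.06, -0.23 to 0.11), Pdk4, which limits glucose oxidation (0.25, 0.04 to 0.47), Angptl4, an inhibitor of lipoprotein lipase (0.27, -0.17 to 0.72) and the fasting hormone Fgf21 (0.14, -0.09 to 0.36).

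**Figure D3:**
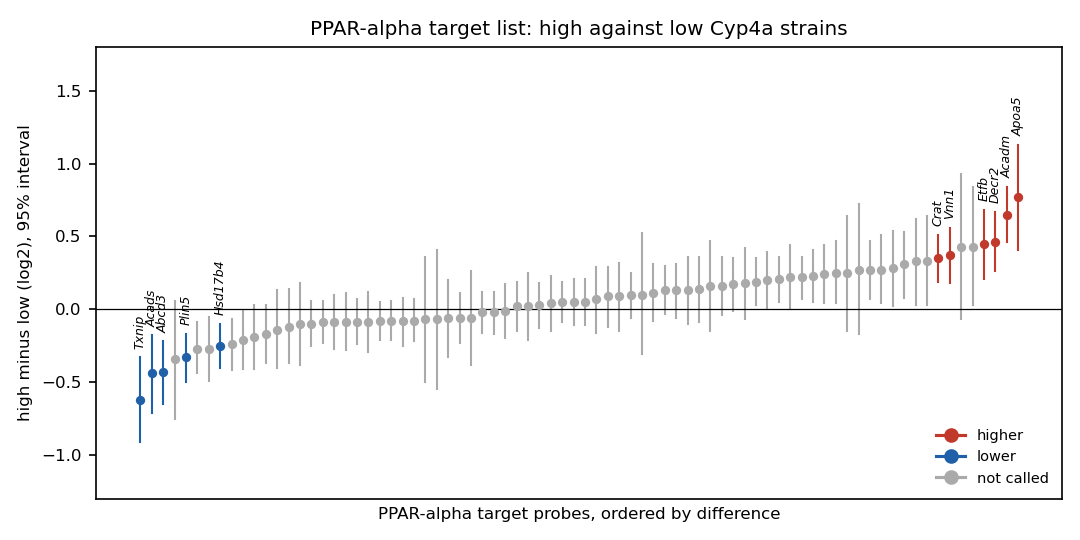
Difference between the high and low Cyp4a strains (y axis, log2, points) with its 95% interval (lines) for each of 78 probes of PPAR-alpha targets, ordered by difference along the x axis. The 6 called higher (red) and the 5 called lower (blue) are named, from Txnip at -0.62 to Apoa5 at 0.77, and the other 67 (grey) did not pass the test.

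The largest difference over named genes was that of Mt1, a metallothionein, a small cysteine-rich protein that binds zinc and copper and is induced by metals, glucocorticoids and stress. Mt1 lay between 2.46 and 3.65 in the high strains, with a median of 3.65, and between 0.58 and 2.08 in the low strains, with a median of 1.06. The sets did not overlap. In 6 high strains Mt1 held 3.65, the highest value of any probe on the array. All arrays were deposited with 1 common distribution of values, so a value cannot exceed it. On this common scale Mt1 was 4.52-fold higher (log2 difference 2.18 ± 0.21 SE, adjusted p = 1.6e-05), and the SE and p rest on values held at that limit. The value 3.65 marks the top rank of an array, so the measured fold may have been smaller or larger. Mt3, a second metallothionein gene, lay between 0.31 and 2.34 in the high and between -0.36 and 0.79 in the low strains (difference 1.39 ± 0.24 SE, adjusted p = 0.0024). Metallothionein sequences are alike, and whether the Mt3 probe also reads Mt1 was not tested. Mt1 and Hmox1, heme oxygenase, were the 2 probes called among 16 on the list of metallothioneins and stress genes, 12.5% against 4.61% of all probes higher. That list did not hold Mt3. The Hmox1 difference was smaller than that of Mt1 (0.39 ± 0.09 SE, adjusted p = 0.016).

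Upstream sequences were looked up for the genes with the largest difference and with the highest correlation to the score. The RefSeq table (GRCm38.p6) held such sequence for 128 of the 166 named genes. For Mt1 the stretch is chr8:94178839-94179088 on the plus strand, the 250 bases before the annotated start, with matches to TGCACNC or TGCGCNC, the cores of metal response elements, in capitals, both strands searched. For Fasn, fatty acid synthase, it is chr11:120824548-120824797 on the minus strand, with CCAAT, the NF-Y box, in capitals on either strand.
Mt1: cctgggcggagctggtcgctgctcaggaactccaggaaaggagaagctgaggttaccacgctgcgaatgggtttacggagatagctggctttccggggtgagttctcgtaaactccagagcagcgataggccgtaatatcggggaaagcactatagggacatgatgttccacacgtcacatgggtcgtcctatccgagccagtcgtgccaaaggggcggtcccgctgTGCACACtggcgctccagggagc
Fasn: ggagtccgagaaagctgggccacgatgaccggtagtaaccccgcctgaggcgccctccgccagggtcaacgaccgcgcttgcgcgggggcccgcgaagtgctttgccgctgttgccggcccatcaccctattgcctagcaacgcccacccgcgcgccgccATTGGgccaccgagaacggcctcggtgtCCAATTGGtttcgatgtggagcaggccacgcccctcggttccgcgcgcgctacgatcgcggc

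Mt1 held 1 TGCACNC match, 23 to 17 bases before the start, and no TGCGCNC match. Bases outside this stretch, including those after the annotated start, were not searched, so the count is not that of the whole promoter. TGCACNC was present in 10.4%, TGCGCNC in 12.5% and at least 1 of these cores in 21.4% of all 32851 stretches of this length. Fasn held 3 CCAAT matches, 2 of which overlap, and 33.8% of all stretches held at least 1. A match is a description of these letters.

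Fasn, which makes palmitate, followed the Cyp4a score most closely of the named genes. Fasn lay between 0.27 and 1.33 in the high strains, with a median of 0.59, and between -0.67 and -0.04 in the low strains, with a median of -0.42. The sets did not overlap (difference 1.10 ± 0.12 SE, 2.14-fold, adjusted p = 7e-05), and over the 27 strains Fasn correlated with the score at r = 0.87, given as a description. Scd1, the desaturase that makes oleate and palmitoleate, went the other way. Scd1 lay between -3.84 and -1.40 in the high strains, with a median of -2.68, and between -2.10 and -0.75 in the low strains, with a median of -0.93, a difference of -1.58 ± 0.28 (SE, adjusted p = 0.0028), with 1 high strain at the lowest value of its array. The sets overlapped in the low strains 31 and 32, at -2.10 and -1.88, and in the high strains 27 and 11, at -1.62 and -1.40.

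Over 30 probes of 26 lipid synthesis genes, 4 were higher and 3 lower, 13.3% and 10% against 4.61% and 3.6% over all probes, with a median difference of 0.017. The other higher ones were Dgat2, which makes triglycerides (0.92 ± 0.21 SE, adjusted p = 0.011; an every 8th probe), Dgat1, a second such enzyme (0.28), and the elongase Elovl2 (0.48). The other lower ones were Insig2, which holds back sterol response factors (-0.42), and 1 of 3 probes of Acaca, the acetyl-CoA carboxylase upstream of Fasn. The calls of Insig2 and Elovl2 were lost with adjusted p of 0.087 without strain 38 and 0.088 without strain 33. The Acaca probe was at -1.89 ± 0.21 in the high and -1.49 ± 0.09 in the low strains (SD, n = 9 each; difference -0.40 ± 0.08 SE, adjusted p = 0.0051), while the other Acaca probes differed by 0.02 and -0.04 (adjusted p = 0.92 and 0.87). Srebf1, a factor that drives this pathway, differed by -0.16 ± 0.07 (SE, adjusted p = 0.16). None of 16 cholesterol synthesis and uptake probes passed with limma. An unadjusted p under 0.05 was found for 2 of these, against 26.1% of all probes, and the median difference was -0.08.

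**Figure D4:**
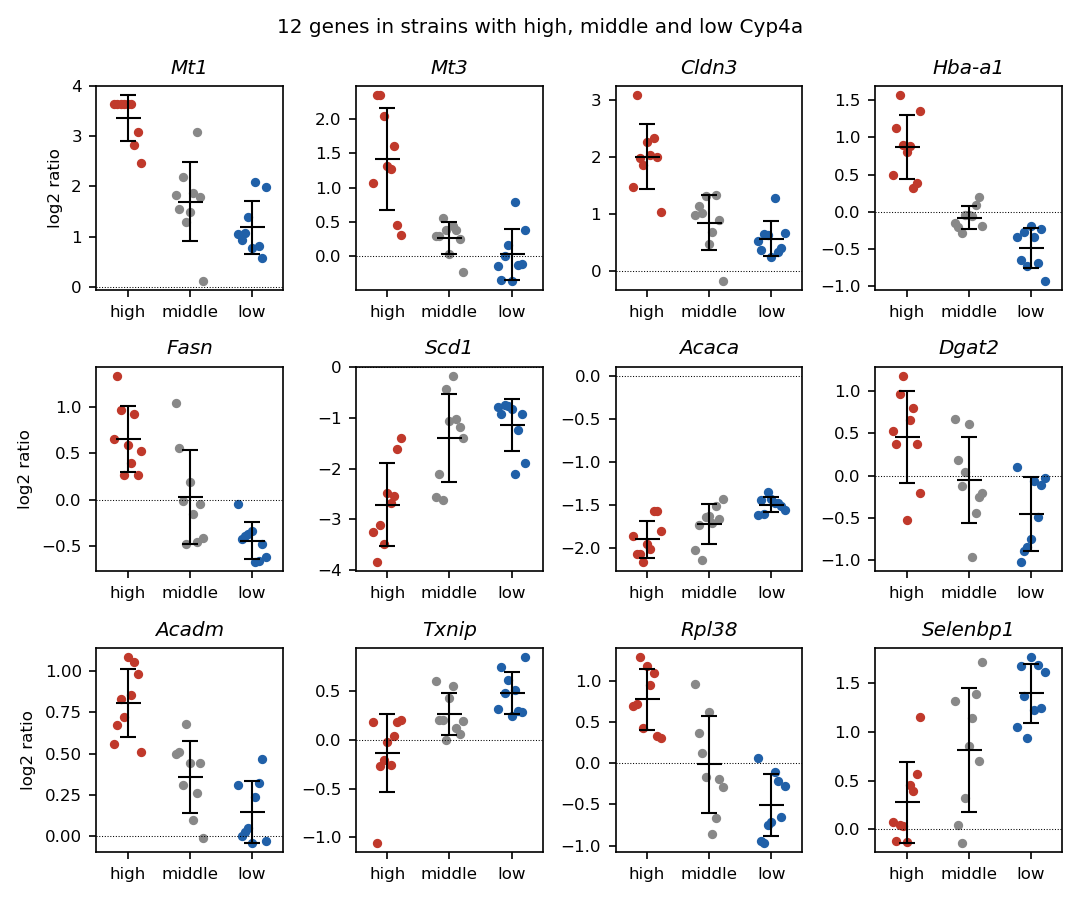
Log2 ratios to the C57BL/6J reference (y axes, a separate scale for each gene) of 12 genes in the high (red), middle (grey) and low (blue) Cyp4a strains; points are strains, ordered by score within a set, and black bars are the mean ± SD of 9 strains. Mt1, Hba-a1, Fasn, Acadm, Txnip and Rpl38 separate the high from the low set without overlap, and Scd1 runs opposite to Fasn.

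Genes for cytosolic ribosomal proteins were the list with the highest share of called probes among those with more than 3 probes. Of 76 probes of 68 genes, 32 were higher in the high Cyp4a strains and 0 lower, 42.1% against 4.61% of all probes, with a median difference of 0.293. At an unadjusted p under 0.05, 46 were higher and 0 lower, against 26.1% of all probes in both directions together. Per strain, the mean over all 76 probes lay between 0.139 and 0.527 in the high and between -0.096 and 0.190 in the low strains, so the sets overlapped. Rpl38, of the large subunit, lay between 0.31 and 1.29 in the high strains, with a median of 0.72, and between -0.97 and 0.07 in the low strains, with a median of -0.65. Its sets did not overlap (difference 1.29 ± 0.16 SE, adjusted p = 0.00013). Rps19 (0.85 ± 0.14 SE, adjusted p = 0.0017) and Rpl29 (0.51 ± 0.08 SE, adjusted p = 0.00071) were also apart, and Rpl9 differed by 0.70 ± 0.12 (SE, adjusted p = 0.0014). Rpl38, Rps19 and Rpl29 are every 8th probes, as are 17 of the 76 and 2532 of all 21763 probes. With each array corrected for place, 29 were called higher, all among the 32. Without strain 38, 33 were called, 30 of them among the 32, and without strain 15, 20 were called, all among the 32. Ribosomal protein genes have many processed copies in the genome, which these probes may also read.

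Oxidative phosphorylation probes were called higher in 6 and lower in 1 of 78, 7.69% and 1.28% against 4.61% and 3.6% over all probes. Ndufa5 of complex I was apart between the sets (0.56 ± 0.08 SE, adjusted p = 0.00071), and Ndufb2 (0.48 ± 0.09 SE, adjusted p = 0.0050) and Atp5j, of ATP synthase (0.83 ± 0.17 SE, adjusted p = 0.0075), were higher as well. The lower one was Atp5c1, also of ATP synthase (-0.43, adjusted p = 0.013).

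**Figure D5:**
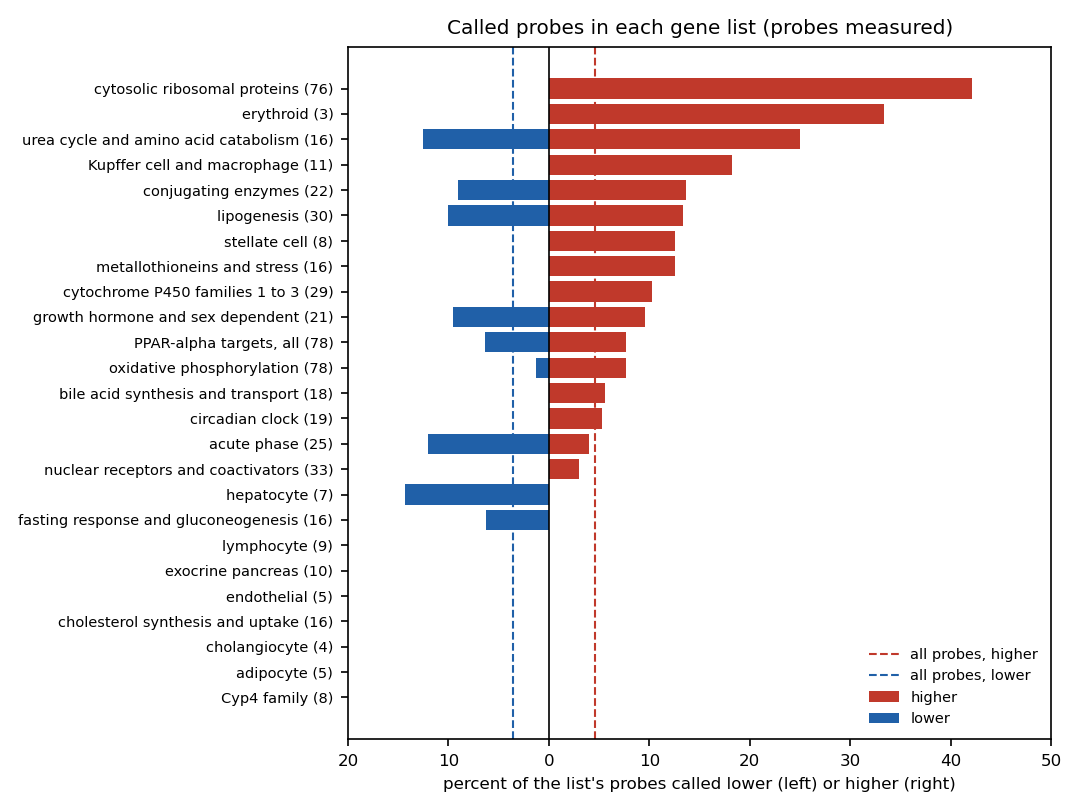
Percent of each list's probes called lower (bars to the left) or higher (bars to the right) in the high Cyp4a strains; the number of probes measured follows each list's name, and dashed lines mark all probes tested, at 4.61% higher and 3.6% lower. Ribosomal proteins stand at 42.1% higher, and lists of 3 to 16 probes move by a large step with each probe.

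Of 16 probes for the urea cycle and amino acid catabolism, 4 were higher and 2 lower, 25% and 12.5% against 4.61% and 3.6% over all probes, and the other 10 did not pass the test. Their median difference was 0.03. Prodh, which starts proline breakdown, lay between 0.55 and 0.85 in the high and between 0.03 and 0.54 in the low strains, without overlap (0.37 ± 0.07 SE, adjusted p = 0.0054). Hal, the first enzyme of histidine breakdown, was higher by 0.54 ± 0.12 (SE, adjusted p = 0.0091) and Arg1, the last step of the urea cycle, by 0.88 ± 0.23 (SE, adjusted p = 0.026). Glud1, glutamate dehydrogenase, was the fourth, at 0.41 (adjusted p = 0.029, and 0.057 without strain 21). Cps1, the first step of the urea cycle, was lower instead, at -1.29 ± 0.35 in the high and -0.56 ± 0.55 in the low strains (SD, n = 9 each; difference -0.73 ± 0.19 SE, adjusted p = 0.026). Tdo2, which opens tryptophan breakdown, was lower as well (-0.52 ± 0.13 SE, adjusted p = 0.022). The calls of Arg1 and Cps1 were lost with adjusted p of 0.053 without strain 21 and 0.052 without strain 15.

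Enzymes that conjugate foreign compounds were called higher in 3 and lower in 2 of 22 probes, 13.6% and 9.09% against 4.61% and 3.6% over all probes. The glutathione transferases Gstm3 (0.81 ± 0.16 SE, adjusted p = 0.0054), Gstt2 (0.72 ± 0.16 SE, adjusted p = 0.0088) and Gsta3 (0.54 ± 0.14 SE, adjusted p = 0.024) were higher. The glucuronosyltransferases Ugt2b5 (-0.92 ± 0.19 SE, adjusted p = 0.0063) and Ugt2b1 (-0.71) were lower. Of 29 probes for P450 families 1 to 3, 3 were higher, 10.3%, and 0 lower, namely Cyp2a12 (0.42 ± 0.10 SE, adjusted p = 0.015), Cyp3a16 (0.52 ± 0.16 SE, adjusted p = 0.045) and Cyp2d9 (0.32 ± 0.10 SE, adjusted p = 0.047). The last 2 calls were lost without strain 14, with adjusted p of 0.084 and 0.089, and P450 genes of 1 subfamily are alike in sequence.

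Over all probes 4.61% were higher and 3.6% lower, and the remaining regulatory lists are given against these shares. Of 21 probes for growth hormone and sex dependent genes, 2 were higher, 9.52% (Socs2, a growth hormone feedback inhibitor, 0.35 ± 0.08 SE, adjusted p = 0.013, and Cyp2d9), and 2 lower, 9.52% (Selenbp2, -0.73 ± 0.20 SE, adjusted p = 0.031, and the receptor Ghr, -0.40 ± 0.11 SE, adjusted p = 0.032). The calls of Selenbp2 and Ghr were lost without strains 14 and 21, with adjusted p of 0.062 and 0.059. Of 19 clock probes, 1 was higher, 5.26%, the output factor Dbp (0.60 ± 0.13 SE, adjusted p = 0.011), while Arntl, at the core of the clock, differed by -0.28 ± 0.17 (SE, adjusted p = 0.29). Of 16 probes of the fasting response, 1 was lower, 6.25%, the kinase Sgk1 (-0.31 ± 0.09 SE, adjusted p = 0.037; 0.070 without strain 15), and Pck1, the gatekeeper of gluconeogenesis, differed by 0.46 ± 0.16 (SE, adjusted p = 0.075). Of 18 bile acid probes, 1 was higher, 5.56%, namely Slc27a5, which activates bile acids for conjugation (0.60 ± 0.15 SE, adjusted p = 0.019). Of 25 acute phase probes, 1 was higher, 4.0%, namely Apcs, the serum amyloid P component (1.31 ± 0.26 SE, adjusted p = 0.0057), and 3 were lower, 12.0%. These were the metalloreductase Steap4, whose sets did not overlap (-0.59 ± 0.10 SE, adjusted p = 0.0027), the iron hormone Hamp (-0.51 ± 0.15 SE, adjusted p = 0.038; 0.070 without strain 22) and the fibrinogen chain Fgg (-0.44 ± 0.13 SE, adjusted p = 0.044; 0.079 without strain 15).

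Of 7 markers of hepatocytes, the main cell of liver, 1 was called, 14.3% against 3.6% of all probes, namely Cps1, lower in the high strains, and Alb, the albumin gene, differed by 0.07 (95% interval -0.20 to 0.35). Their mean level lay between -0.186 and 0.264 in the high and between -0.101 and 0.415 in the low strains. The ratios have no true zero, so presence of a cell type cannot be read from them. Macrophage markers were called higher in 2 of 11 probes, 18.2% against 4.61% of all probes, namely Cd14, a receptor for bacterial lipopolysaccharide whose sets were apart (0.43 ± 0.08 SE, adjusted p = 0.0037), and 1 of 2 probes of the lysozyme gene Lyz2 (0.43 ± 0.12 SE, adjusted p = 0.030; 0.058 without strain 15). The other Lyz2 probe differed by -0.16 (adjusted p = 0.40). At an unadjusted p under 0.05, 4 of the 11 probes were higher and 1 lower, the lower one being C1qc (-0.26 ± 0.10 SE, adjusted p = 0.10). The mean level of the list lay between 0.161 and 0.388 in the high and between 0.1 and 0.206 in the low strains. Of 8 stellate cell probes, 1 was higher, 12.5%, the collagen gene Col3a1 (0.84 ± 0.16 SE, adjusted p = 0.0038). At an unadjusted p under 0.05, 3 were higher and 1 lower, the lower one being Reln (-0.49 ± 0.17 SE, adjusted p = 0.067). The mean level of this list lay between -0.062 and 0.366 in the high and between -0.059 and 0.130 in the low strains. None of 5 adipocyte, 10 pancreas, 4 cholangiocyte, 5 endothelial or 9 lymphocyte probes was called with limma. An unadjusted p under 0.05 was found for 2 pancreas, 3 endothelial and 1 lymphocyte probe, and for 26.1% of all probes. In bulk tissue, fewer cells of a type and less RNA per cell cannot be told apart, and the part of these markers in the other results was not tested.

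Hba-a1, an alpha globin gene, lay between 0.32 and 1.57 in the high strains, with a median of 0.89, and between -0.94 and -0.20 in the low strains, with a median of -0.35. The sets did not overlap (difference 1.36 ± 0.15 SE, adjusted p = 6.9e-05). Both probes of Hba-x, the embryonic alpha-like globin, were higher too, by 0.97 ± 0.11 and 0.49 ± 0.10 (SE, adjusted p = 8.4e-05 and 0.0049); Hba-x was named after its values were seen. Globin genes are alike in sequence. The mean level of the 3 erythroid markers lay between 0.241 and 0.705 in the high and between -0.28 and 0.245 in the low strains. The other erythroid markers, Slc4a1 of the red cell membrane and Alas2 of heme synthesis, differed by 0.12 ± 0.07 and -0.01 ± 0.19 (SE, adjusted p = 0.28 and 0.98).

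Of the remaining largest differences, Cldn3, a tight junction protein, lay between 1.03 and 3.09 in the high and between 0.24 and 1.29 in the low strains (1.45 ± 0.19 SE, adjusted p = 0.00027). Ces1g, a carboxylesterase that hydrolyses lipid esters, was higher by 1.39 ± 0.21 (SE, adjusted p = 0.00064), Ms4a6c, a membrane protein of macrophages, by 1.45 ± 0.24 (SE, adjusted p = 0.0013), and Crct1, an epidermal gene, by 1.58 ± 0.23 (SE, adjusted p = 0.00058). Terb2, of meiotic telomeres, was higher by 1.92 ± 0.37 (SE, adjusted p = 0.0047), with low strains between -1.03 and -0.57 and high strains spread from -0.84 to 2.82. Tmem70, an assembly factor of ATP synthase, was higher by 1.48 ± 0.20 (SE, adjusted p = 0.00027; an every 8th probe), and Scel, of the cornified envelope, by 1.27 ± 0.32 (SE, adjusted p = 0.021).

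Selenbp1, a selenium-binding protein abundant in liver, lay between -0.13 and 1.15 in the high strains, with a median of 0.08, and between 0.93 and 1.76 in the low strains, with a median of 1.36. The difference was -1.11 ± 0.15 (SE, adjusted p = 0.00036, and up to 0.0011 with a strain left out), and of the high set only strain 11 reached into the range of the low set. Car3, the muscle and liver carbonic anhydrase, lay between -2.29 and 1.00 in the high and between 0.05 and 1.27 in the low strains (-1.24 ± 0.31 SE, adjusted p = 0.018). Ptger3, a prostaglandin E receptor, differed by -1.62 ± 0.42 (SE, adjusted p = 0.024) and Satl1 by -1.44 ± 0.37 (SE, adjusted p = 0.024). For Ptger3, strain 38 of the high set lay at the lowest value of its array, -3.84, with the next high strain at -1.72. Strain 38 was also the lowest high strain for Car3, at -2.29. For Satl1, 1 low strain lay at the highest value of its array.

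Both probes of Klrb1b, a natural killer cell receptor, were lower, with differences of -1.19 ± 0.25 and -0.83 ± 0.26 (SE, adjusted p = 0.0082 and 0.047), and the second lost its call without strain 12 (adjusted p = 0.081). The other 6 of the 12 largest lower were Sv2c (-1.27), Olfr70 (-1.21), Stfa3 (-1.21), Ercc6l (-1.11), Fcgr2b (-1.10) and Abcb1b (-1.10), with Olfr70, Ercc6l and Abcb1b read by every 8th probes. In all 6, strain 38 was far below the other high strains. It lay at -2.62 for Sv2c, -2.48 for Olfr70, -2.54 for Stfa3, -2.35 for Ercc6l, -2.42 for Fcgr2b and -2.47 for Abcb1b. Except for Sv2c, all 6 lost their calls with some strain left out, at adjusted p of up to 0.086 for Olfr70 and 0.059 for Stfa3 without strain 15, 0.051 for Ercc6l without strain 15, 0.059 for Fcgr2b without strain 13 and 0.055 for Abcb1b without strain 19.

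The named genes whose values over the 27 strains were most like the score were Fasn (r = 0.87), Hba-a1 (0.82), Plcb3 (0.82), Crct1 (0.81), Ankrd55 (0.80), Cyp2u1 (0.80), Mt1 (0.79) and 1 probe of Plcb4 (0.79). Those most opposed were Rcan2 (r = -0.80), Zc3h11a (-0.79), Kctd20 (-0.78), Selenbp1 (-0.78), Id3 (-0.77), Rbm20 (-0.77), Acaca (-0.76) and Pxdn (-0.76). The strains share 1 reference, and the r values are descriptions. Plcb3, a phospholipase C of G protein signalling, lay between 0.37 and 0.95 in the high and between -0.11 and 0.36 in the low strains. Cyp2u1, a P450 that hydroxylates long-chain fatty acids near the chain end, lay between 0.61 and 1.75 in the high and between 0.17 and 0.54 in the low strains (0.69 ± 0.12 SE, adjusted p = 0.0016). Both were apart between the sets. The second probes of Plcb4, Zc3h11a and Rbm20 were not called, with differences of -0.39, 0.04 and 0.00.

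The 9 middle strains took no part in the fit. In 1469 of the 1787 called probes, 82.2%, the slope on the score over these strains had the sign of the difference between the sets, against 65.2% of all probes. Fasn (slope 1.06) and Acadm (0.33) kept their direction there, as did Scd1 (-1.42) and Mt1 (0.46). Txnip (0.24) and Col3a1 (-0.31) did not. Of the 12 largest higher, only Hba-a1 (-0.22) did not. Of the 12 largest lower, Olfr70 (1.79), Sv2c (0.99), Satl1 (0.69), Ercc6l (0.59), Stfa3 (0.34), Fcgr2b (0.31) and Abcb1b (0.16) did not. The others of these 12, namely Ptger3 (-0.26), Scd1, Car3 (-0.63), the first Klrb1b probe (-1.12) and Selenbp1 (-0.74), kept it. In the 4 strains left out, Mt1 ranged from 0.09 to 2.82.

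Over 902 genes with exactly 2 probes, the differences of both correlated at r = 0.020 across genes, which are not independent, and 50.3% had the same sign. Of 143 called probes with 1 other probe for the gene, 74 had the same sign in the other. Most genes named above have 1 probe, so whether a second probe would share their difference cannot be read here. Of all probes tested, 8.21% were called in either direction. Both probes were called in 6 of the 902 genes, in 1 direction for Hba-x, Klrb1b, Mif and Rif1, and in opposite directions for Cat, the peroxisomal catalase (0.49 and -0.61), and Mirt1 (0.38 and -0.38). In the last 2 genes, 1 probe lost its call without strain 14 (Cat, adjusted p = 0.075) or strain 21 (Mirt1, 0.081), as did 1 Klrb1b probe without strain 12. All but Klrb1b among these 6 were named after their values were seen. Whether 6 is more than unrelated probes would give was not tested.

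Next to the Cyp4a genes on chromosome 4, 3 of 21 probes of the 10 measured genes on each side were called, all higher, 14.3% against 4.61% of all probes, with a median difference of -0.007 over the 21. These were Faah, which breaks down fatty acid amides such as anandamide (0.36 ± 0.10 SE, adjusted p = 0.032), Mknk1, a kinase of translation control (0.49 ± 0.15 SE, adjusted p = 0.045; an every 8th probe) and Bend5 (0.33 ± 0.09 SE, adjusted p = 0.022). With the place correction, Mknk1 had an adjusted p of 0.093, and Faah had 0.062 without strain 12. Cyp4b1, the nearest measured gene on the other side, differed by 0.04 ± 0.08 (SE, adjusted p = 0.81).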

How the data were processed

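The authors deposited 1 log2 ratio per probe and array, already normalized; R 2.0.0 and limma are named in the submitters' processing notes, and background correction is not given in the sources used here. All 31 arrays hold the same sorted values to within 0.000256, from -3.84 to 3.65, so levels are ranks on a common scale. Depth has no meaning here, and the number of strains limits precision. Of 23040 features, 21765 had a value on every array, and 16642 of these had 1 gene listed; 134 had several and 4989 none, and these are unnamed.

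Strains were ranked by the mean of the Cyp4a10 and Cyp4a14 probes. The 9 highest and 9 lowest of 27 were compared with limma 3.58.1 in R 4.3.3 (lmFit, eBayes, two-sided) over the other 21763 probes, with Benjamini-Hochberg adjustment; the code was checked on simulated data. "Called" means an adjusted p under 0.05. Strain sets, gene lists and tests were chosen with earlier results of these data known, so list counts are descriptions and no list was tested. Named genes were the 12 largest called differences each way, all Cyp4 and nuclear receptor probes, up to 4 per other list by smallest p, called neighbours of the Cyp4a genes, and the 8 highest and 8 lowest r with the score; list members beyond these are named only where a count covers them. Symbols came from the platform annotation, 15964 of them updated through RefSeq. Array measures were compared by exact permutation tests.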

Additional observations from a re-analysis of the deposited data

Results flagged for a closer look

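In the called named genes, each set of 9 strains was searched for a strain whose gap to its neighbour was too large a share of the set's range by Dixon's test at 95%. Among 168 sets, 18 held such a strain. The threshold would flag about 1 in 20 independent sets of normally distributed values. These sets share the same 18 arrays and are not independent, so their count cannot be compared with that share. Strain 38 was lowest of the high Cyp4a strains for Sv2c (-2.62), Stfa3 (-2.54), Abcb1b (-2.47), Fcgr2b (-2.42), Ercc6l (-2.35) and Acads (-1.38). Its array also had the lowest median correlation with the others, 0.584, and whether that plays a part was not tested. Strain 11 was lowest of the high strains for Tmem70 (-1.50) and Lyz2 (-0.25) and highest for Fgg (0.80). Strain 15 was highest for Decr2 (1.19). Strain 20 was lowest for Txnip (-1.06) and strain 5 for Cyp3a16 (-0.74). In the low Cyp4a strains, strain 14 was lowest for Ms4a6c (-1.38) and Rcan2 (-0.32), and strain 32 for Cyp2a12 (-0.92) and Fgg (-0.18). Strain 31 was highest for Cldn3 (1.29) and strain 16 for Rpl29 (0.56).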

How the results depend on the processing

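No paired analysis was possible because each strain has 1 array and the labels pair no strains. The count of higher probes, 1004, became 1543 with 12 against 12 strains, 1763 at an adjusted p under 0.1 and 0 with the first principal component as a covariate, and 668 to 1310 with 1 strain left out. The count of lower probes, 783, became 1335 with Cyp4a10 alone, 1432 with 12 against 12, 1181 with all 31 strains ranked, 1583 at 0.1, 2 with the component, and 462 to 1063 with 1 strain left out. The list counts were recomputed as an addition after seeing the data. The 32 higher ribosomal probes became 21 without every 8th probe, 0 with the component and 20 to 35 with 1 strain left out. The 6 higher PPAR-alpha targets became 10 with Cyp4a10 alone, 0 with the component and 6 to 9 with 1 strain left out. The 5 lower ones became 3 with the continuous score, 0 with the component and 3 to 7 with 1 strain left out. With the component, all 84 called named probes lost their call, with adjusted p of 0.098 or more. In 12 of them the difference was as large or larger with the same sign, as for Terb2 (1.98), Apcs (1.84), Ces1g (1.62), Cyp2u1 (0.88) and Plcb3 (0.70), in 66 it was smaller with the same sign, as for Fasn (1.04), and in 6 it changed sign, to -0.14 for Scel, 0.10 for Ptger3, 0.18 for Car3, 0.19 for Acads, -0.06 for Dbp and -0.09 for Ndufa8; the component separates the sets, and the cause was not tested. Of the 84, 64 were called in every one of 18 fits without 1 strain. The place correction changed no strain set and lost 2 of 84 calls, and a running median over 25 neighbouring identifiers, also added after seeing the data, lost 6. The array's common range of values bounds Mt1 in 6 strains and Scd1, Ptger3 and Satl1 in 1 each.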
